A study of Homo sapiens with 3 samples.

Results

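In DU145 cells, 480 of the 536 regions listed for the chromatin protein ZMYND11 (also called BS69) in parental cells had no overlapping ZMYND11 region in cells that lacked ETS1. These parental-only regions were selected on the 2 deposited ZMYND11 region lists: a parental region is a member if no region of the knockout list overlaps it by 1 bp or more. They are 89.6% of the parental list, which is a property of the rule and was not tested. The study used chromatin immunoprecipitation followed by sequencing (ChIP-seq) in DU145, an established line from a prostate adenocarcinoma metastasis to the brain. The libraries were ZMYND11 in parental cells (536 regions, labelled WT), ZMYND11 in ETS1-knockout cells (15676 regions) and ETS2 in ETS1-knockout cells (1020 regions), 1 library each. The labels do not say how ETS1 was deleted or whether the knockout cells are 1 clone, and no input or untreated control list was analysed here. No value below has a replicate error, and no p-value is given.

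ZMYND11 is a reader of methylated histone H3 that is known for binding in the bodies of transcribed genes, where it acts as a co-repressor. ETS1 and ETS2 are closely related DNA-binding transcription factors, and both are phosphorylated downstream of Ras through the ERK kinases. The study, by its title, asks how the opposing roles of both factors depend on ZMYND11, so positions of ZMYND11 that are listed only when ETS1 is present bear on the comparison of the 2 cell types. The lists hold a chromosome, a start and an end for each region, on hg19, with no score, read count or depth. A region without a partner in the knockout list is therefore unlisted there, and absent binding cannot be told apart from signal under the calling threshold. Which gene a region lies in was not analysed here. Intervals below are 95% Wilson intervals for shares and Newcombe intervals for differences of shares. They cover the counting of regions only, and neighbouring regions are not independent.

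Parental-only regions lay at widely varying distances from knockout ZMYND11 regions, with 22.7% within 5 kb, 51.0% within 50 kb and 63.75% within 100 kb. What distances scattered regions would have was not computed. The median gap between the edges of a member and its nearest knockout region was 47834.5 bp (quartiles 6374 and 213090.5 bp, range 50 to 4932830 bp). Of the 480 members, 32 (6.67%) were within 1 kb of a knockout region without touching it, 77 were at 1 to 5 kb and 39 at 5 to 10 kb. A further 97 were at 10 to 50 kb, 61 at 50 to 100 kb, 146 at 100 to 1000 kb and 28 beyond 1000 kb. Members thus ranged from direct neighbours of knockout regions to regions with no knockout region in the same megabase. Within 100 kb to either side of a member's midpoint lay a median of 2 knockout midpoints (quartiles 0 and 7), against 9 (quartiles 4 and 13) around the 56 parental regions that overlapped a knockout region, which count the overlapping region itself. These distances come from the same lists as the rule and are a description.

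**Figure D1:**
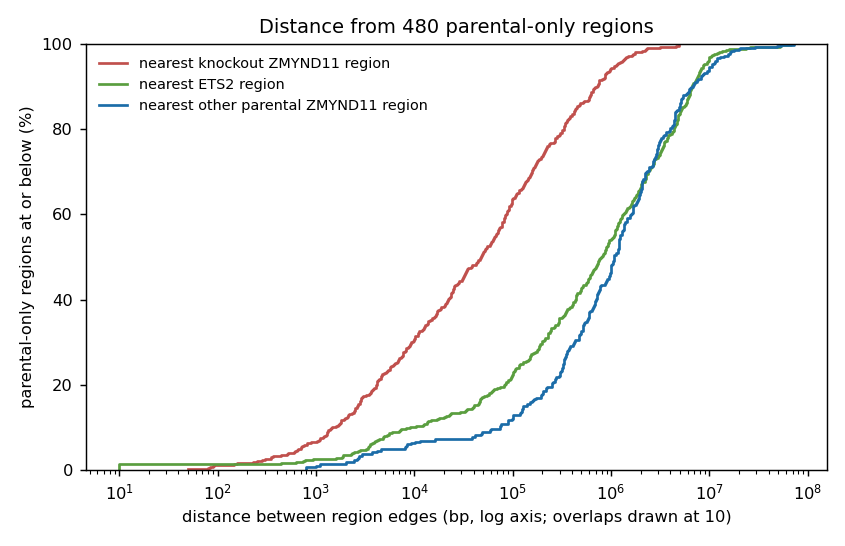
Cumulative share of the 480 parental-only regions (y axis, %) whose nearest knockout ZMYND11 region, ETS2 region or other parental ZMYND11 region lies at or below a distance between edges (x axis, bp, log scale; overlaps drawn at 10). The curve for knockout ZMYND11 reaches 63.7% at 100 kb, that for ETS2 22.7%.

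The first 25 members in the order of the parental list ranged from regions beside a knockout region to regions far from any. Of these 25, 14 had a knockout region within 5 kb, 5 had the nearest at 5 to 100 kb, and 6 had none within 100 kb. Of the 14, 2 were within 1 kb and 12 were at 1 to 5 kb. For 9 of the 14 the neighbouring knockout region stood among the first 156 of its list, which is the first 1%. What the order of the lists stands for is not stated, so a place is given only as a line number.

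These 9 members were the following. The member chr7:5567950-5568449, at place 2 of the parental list, lay 2452 bp from the knockout region chr7:5564997-5565498 at place 78. The member chr17:79478772-79479271 (place 3) lay 89 bp from chr17:79478186-79478683 at knockout place 81. The member chr12:6646759-6647249 (place 4) lay 600 bp from chr12:6647849-6648348 at knockout place 119. So 3 of the first 3 parental-only regions had a neighbour near the beginning of the knockout list. The member chr8:146016869-146017364 (place 8) lay 3636 bp from a knockout region at place 140. The member chr22:39710458-39710940 (place 12) lay 2880 bp from one at place 80, and chr1:86046717-86047207 (place 14) lay 2633 bp from one at place 143. In these 3 pairs, unlike those at places 3 and 4, several kilobases lay between the parental and the knockout region. The last were chr19:5691917-5692405 (place 15, gap 2618 bp, knockout place 47), chr20:60878601-60879088 (place 23, gap 2823 bp, knockout place 150) and chr12:125397787-125398286 (place 30, gap 2815 bp, knockout place 76). The median gap of the 9 was 2633 bp, and 9 of the 9 also had an ETS2 region within 5 kb. Of all 536 parental regions 9.70% had one, as did 42.8% of the first 1567 knockout regions and 4.14% of the later ones. The share for the first 156 knockout regions, which hold the neighbours of the 9, was not computed. The 9 were picked by the place of their knockout neighbour, and the part of this in the ETS2 count was not tested.

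**Figure D2:**
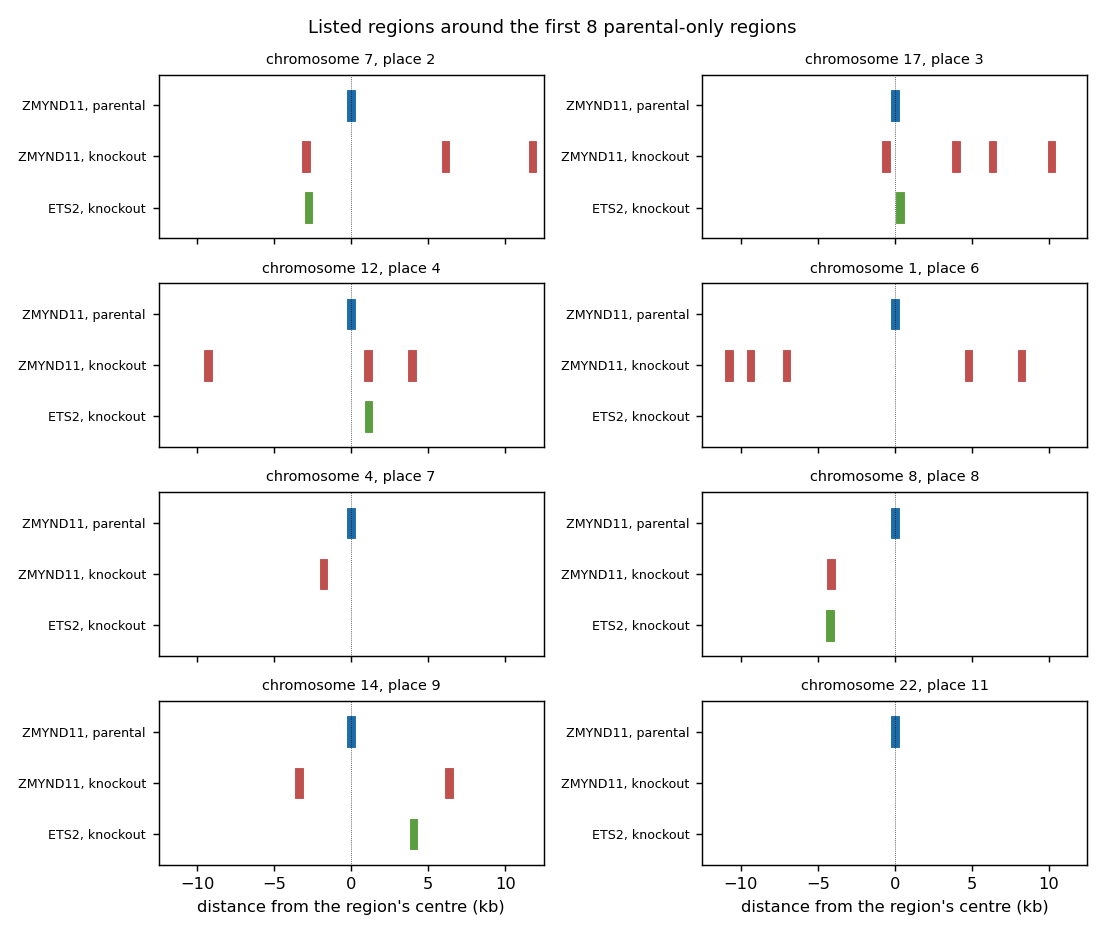
Regions of the 3 lists within 12 kb of the first 8 parental-only regions, each drawn to scale as a block on the row of its list (x axis, distance from the centre of the parental-only region in kb). Of the 8, 7 have a knockout ZMYND11 region within 5 kb, and the chromosome 22 member at place 11 has none in the window.

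The other 5 of the 14 had a neighbour past the first 1% of the knockout list. They were chr1:16466807-16467302 (place 6, gap 4281 bp, knockout place 1812), chr4:49515295-49515795 (place 7, gap 1293 bp, knockout place 12470) and chr14:69256518-69257011 (place 9, gap 2901 bp, knockout place 222). On chromosome 19 they were chr19:3977617-3978118 (place 19, gap 1888 bp, knockout place 456) and chr19:13947299-13947799 (place 25, gap 2338 bp, knockout place 169). The places of their neighbours thus ran from 169 to 12470.

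At intermediate distance stood chr21:45139887-45140384 (place 31, gap 7711 bp), chr12:122335359-122335853 (place 18, gap 8651 bp) and chr22:19910848-19911346 (place 11, gap 12935 bp). The members chr12:46891007-46891477 (place 29) and chr1:26061712-26062213 (place 27) were 23207 and 74693 bp from a knockout region. The 6 without a knockout region within 100 kb began with chr21:32906776-32907258 (place 16, gap 135001 bp), chr21:37576651-37577141 (place 20, gap 115745 bp) and chr8:125132398-125132883 (place 21, gap 171895 bp). They ended with chr1:234292678-234293179 (place 24, gap 215608 bp), chr12:30566011-30566509 (place 28, gap 660007 bp) and chr2:15732820-15733318 (place 22, gap 2201548 bp). Far members were therefore present among the first lines of the parental list as well as near ones.

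The first members and the later ones are set side by side here as a description, since the first 48 include the 25 described above and the distances come from the list that the rule used. Among the first 48 members, which are the first 10% and were singled out after the values were seen, 19 (39.6%, interval 27.0 to 53.7%) had a knockout region within 5 kb. Among the other 432 members 90 did (20.8%, interval 17.3 to 24.9%), a difference of 18.8 percentage points (interval 5.54 to 33.3). The nearest knockout region stood in the first 1% of its list for 11 of the first 48 (22.9%, interval 13.3 to 36.5%) and for 13 of the others (3.01%, interval 1.77 to 5.08%), a difference of 19.9 points (interval 10.1 to 33.6). Over all 536 parental regions that share was 5.78%. Members as a whole had it less frequently than the overlapping regions: 24 of 480 members against 7 of 56. That difference was -7.5 points (interval -18.7 to -0.772). Early knockout neighbours were thus found in both groups and were not particular to members. For the overlapping regions the nearest knockout region is one they overlap, which the rule fixes, so the size of the difference is a description only. No knockout region within 100 kb was found for 17 of the first 48 (35.4%) and for 157 of the others (36.3%), a difference of -0.926 points whose interval runs from -13.8 to 13.9, so that differences of that size in either direction were not detectable.

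In the first 10% of members, the 19 with a knockout region within 5 kb had neighbours at a median place of 150 in the knockout list. In the 9 following groups of 48 members that median lay between 1906.5 and 10333, and the highest value was that of the last 48 members. Across the 109 members within 5 kb of a knockout region, a member's place and its neighbour's place had a Spearman's rho of 0.35. Across the 174 members farther than 100 kb from any the rho was 0.00044, and the place of a member against its gap gave 0.0098 over all 480. The points of these correlations come from 1 pair of lists, and regions close together can share a neighbour. Members themselves were spread evenly: the 10 equal parts of the parental list held 45 to 52 members each, with a median place of 269.5 for members and 264 for the 56 overlapping regions.

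**Figure D3:**
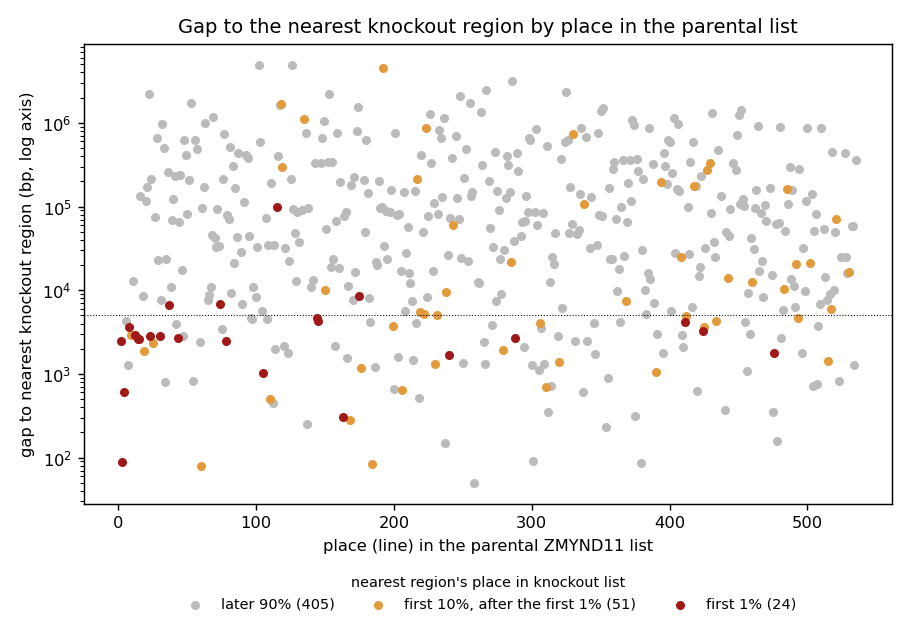
Each of the 480 parental-only regions by its place in the parental list (x axis) and its gap to the nearest knockout ZMYND11 region (y axis, bp, log scale), coloured by where that nearest region stands in the knockout list; the dotted line marks 5 kb. Of the 24 members whose nearest knockout region is in the first 1%, 20 lie at or under the dotted line.

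The place of the nearest knockout region in its list varied with the gap. Among the 77 members at 1 to 5 kb, the nearest knockout region was in the first 1% of its list for 17, and in the first 10% for 32 (41.6%, interval 31.2 to 52.7%). Among the 32 members within 1 kb these numbers were 3 and 9 (28.1%, interval 15.6 to 45.4%). The intervals of both shares overlap. An interval for their difference was not computed, so whether these distances differ is not decided here. Among the 39 members at 5 to 10 kb the numbers were 3 and 10 (25.6%, interval 14.6 to 41.1%). Among the 332 members beyond 10 kb, 1 had its nearest knockout region in the first 1% and 24 in the first 10% (7.23%, interval 4.91 to 10.5%). By construction 10% of all knockout regions are in that part of the list. The nearest knockout region was in it for 16.8% of all 536 parental regions and for 26.8% of the 56 overlapping regions. For the 480 members it was 75 (15.6%), a difference from the overlapping regions of -11.2 points (interval -24.3 to -0.721). The nearest knockout region of an overlapping region is one it overlaps, which the rule fixes, so this difference is a description only.

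ETS2, which was mapped in the knockout cells only, was rarely listed on a parental-only region. Of 480 members 7 overlapped an ETS2 region (1.46%, interval 0.708 to 2.98%), against 11 of the 56 parental regions with a knockout ZMYND11 region (19.6%, interval 11.3 to 31.8%). The share over all parental regions was 3.36%. The difference was -18.2 percentage points (interval -30.4 to -9.74). Of the 1020 ETS2 regions 582 overlapped a knockout ZMYND11 region, so removing parental regions with a knockout ZMYND11 region also removes many with ETS2, and the rule fixes part of this difference.

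Each of the 7 members with ETS2 had a knockout ZMYND11 region within 5 kb, and for each that region was among the first 200 of 15676. The limit of 200 is the largest of these 7 places, that of the chromosome 6 member, and not the first 1% used above. The share of all members with a neighbour among the first 200 was not computed. ETS2 was within 5 kb of 42.8% of the first 1567 knockout regions and 4.14% of the later ones. The part of this in the early places of the 7 neighbours was not tested. On chromosome 17 the member chr17:79478772-79479271 shared 165 bp with the ETS2 region chr17:79479106-79479606, while the knockout ZMYND11 region lay 89 bp off on the opposite side. The member chr6:33244864-33245365 (place 184) shared 346 bp with an ETS2 region at place 224 and was 83 bp from the knockout region at place 200. These pairs of ZMYND11 regions were separated by less than a region's width. The member chr16:89630849-89631344 (place 163) shared 388 bp with the ETS2 region at place 44 and was 306 bp from knockout place 28. The member chr11:65190403-65190904 (place 145) shared 456 bp with ETS2 place 49, and its nearest knockout region, place 54, was 4328 bp away. The member chr12:52642171-52642672 (place 288) shared 194 bp with ETS2 place 131 and was 2709 bp from knockout place 39. The remaining 2 were on chromosome 19: chr19:5691917-5692405 shared 377 bp with ETS2 place 643, and chr19:5696550-5697032 (place 105) shared 382 bp with ETS2 place 42. So in the knockout cells ETS2 was listed at these 7 positions, with the nearest knockout ZMYND11 region 83 to 4328 bp from the member. These gaps are not distances from the ETS2 region. On chromosome 6 the ETS2 region chr6:33244712-33245210 itself overlapped the knockout ZMYND11 region chr6:33244295-33244781.

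Most members with an ETS2 region nearby also had a knockout ZMYND11 region nearby, which the positions of the lists to each other fix in part. An ETS2 region lay within 5 kb of 38 members (7.92%, interval 5.82 to 10.7%), where all parental regions gave 9.70% and all knockout ZMYND11 regions 8.01%. Of the 109 members within 5 kb of a knockout ZMYND11 region 35 had ETS2 within 5 kb (32.1%, interval 24.1 to 41.4%), against 3 of the other 371 (0.809%, interval 0.275 to 2.35%). The difference was 31.3 percentage points (interval 23.1 to 40.6). The 582 ETS2 regions that overlap a knockout ZMYND11 region cannot lie near a member without that knockout region lying near it too. With only the 438 other ETS2 regions, of which 373 still had a knockout region within 5 kb, the numbers were 15 of 109 (13.8%, interval 8.52 to 21.5%) and 2 of 371 (0.539%, interval 0.148 to 1.94%), a difference of 13.2 points (interval 7.80 to 20.9). Members were split here by distance to the list that the rule used, so these values are a description. For 18 of the 38 members the nearest ETS2 region overlapped the nearest knockout ZMYND11 region, and for the other 20 it did not.

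The place of a knockout region in its list also moved with ETS2. Of the first 1567 knockout ZMYND11 regions, 671 had ETS2 within 5 kb (42.8%, interval 40.4 to 45.3%), against 584 of the later 14109 (4.14%, interval 3.82 to 4.48%). Among members within 5 kb of a knockout region, 41 of 109 had a neighbour from those first 1567 (37.6%), against 34 of the other 371 members (9.16%). The part of this in the ETS2 difference was not tested. Along the parental list, ETS2 within 5 kb was found for 12 of the first 48 members (25%, interval 14.9 to 38.8%) and 26 of the other 432 (6.02%, interval 4.14 to 8.67%). Of the last 48 members 0 had one, which allows a share of up to 6.25% when a count of 0 is read as up to 3 counts.

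**Figure D4:**
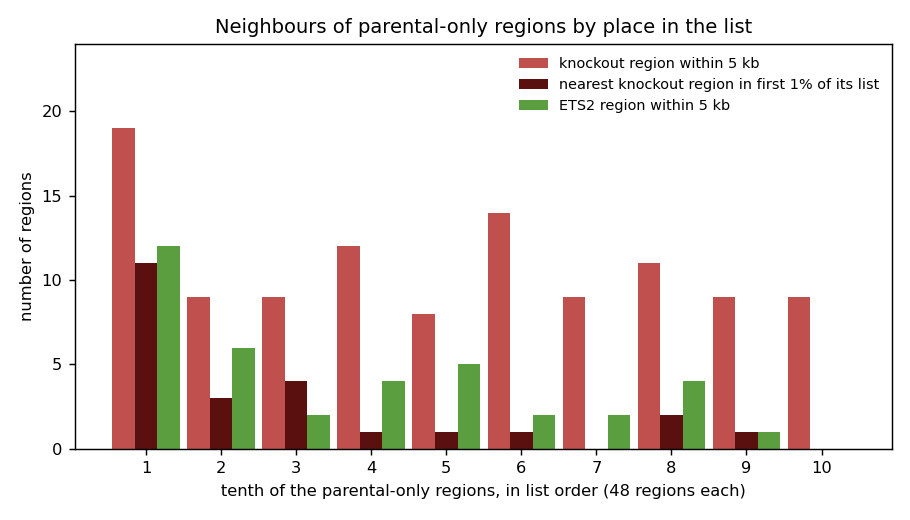
Number of parental-only regions (y axis) with a knockout ZMYND11 region within 5 kb, with a nearest knockout region in the first 1% of its list, and with an ETS2 region within 5 kb, in 10 successive groups of 48 members in list order (x axis). The first group has 19, 11 and 12; the last has 9, 0 and 0.

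The members just inside the rule were separated from a knockout region by less than 100 bp. The smallest gaps were 50 bp for chr19:799681-800175 (place 258), 79 bp for chr19:1167501-1167996 (place 60), 83 bp for chr6:33244864-33245365, 87 bp for chr6:43142410-43142904 (place 379) and 89 bp for chr17:79478772-79479271. Just outside the rule, the smallest overlaps were 22 bp for chr20:62588269-62588768, 47 bp for chr20:33125544-33126018, 75 bp for chr4:49313582-49314040, 126 bp for chr19:895882-896369 and 135 bp for chr1:24122549-24123035. Regions on both sides of the boundary thus differed by a shift well under the median width of 493 bp. No member touched a knockout region end to end, so the count does not depend on whether starts are counted from 0 or from 1.

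At the far end, 174 members (36.2%, interval 32.1 to 40.6%) had no knockout region within 100 kb. The farthest were chr4:31872831-31873319 (place 102), 4932830 bp from a knockout region, and chr4:171117078-171117578 (place 126) at 4851521 bp. Next were chrX:28683029-28683511 (place 192) at 4584766 bp, chr13:84073745-84074209 (place 286) at 3158925 bp and chr2:167251704-167252134 (place 267) at 2494689 bp. Divided into fixed megabases, members fell into 402, of which 69 held no knockout region at all. Those 69 held 73 members. Pairs of members without any knockout region in the megabase were found at 76 to 77 Mb of chromosome 16, 41 to 42 Mb of chromosome 20, 102 to 103 Mb of chromosome 4 and 128 to 129 Mb of chromosome 6.

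Members were rarely close to each other. The median distance to the nearest other parental region was 1078336 bp, and 30 members (6.25%, interval 4.41 to 8.78%) had another parental region within 10 kb, against 6.53% of all parental regions. Among the 56 overlapping regions 5 did (8.93%, interval 3.87 to 19.3%), and the difference of -2.68 points had an interval of -13.2 to 2.97, so no difference was detectable. The 30 members fell into 16 runs, of which 11 held members only and 5 also held 1 overlapping region. Each of the 30 had a knockout region within 10 kb (largest gap 9943 bp), whereas 148 of all 480 members did (30.8%). For the 7 members whose run holds an overlapping region, this follows from the rule only where that region is within 10 kb. The chromosome 19 members at places 15 and 105 lie farther from theirs. Their gaps of 2618 and 1026 bp are to another knockout region, at place 47. For these members, and for the other 23 in runs of members only, the nearness is a description. The rule used the same knockout list.

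There were 2 runs of 3 members. On chromosome 19 the members chr19:5687743-5688236 (place 74), chr19:5691917-5692405 (place 15) and chr19:5696550-5697032 (place 105) stood 3681 and 4145 bp apart. The knockout region chr19:5695023-5695524, at place 47, lay between the last pair, 2618 bp from one and 1026 bp from the other. ETS2 regions overlapped both members beside it, and no ETS2 region overlapped the member at place 74. At the lower end of the run, 6819 bp away, chr19:5680437-5680924 (place 438) overlapped both a knockout ZMYND11 region and an ETS2 region. The 16595 bp from end to end thus held 4 parental ZMYND11, 2 knockout ZMYND11 and 3 ETS2 regions.

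On chromosome 16 the run consisted of chr16:89627680-89628181 (place 75), chr16:89630849-89631344 (place 163) and chr16:89640567-89641061 (place 389). One knockout region, chr16:89631650-89632150 at place 28, and one ETS2 region, chr16:89630956-89631450, lay inside its 13381 bp. Both were beside or on the middle member. The member at place 75 was 3466 bp from a knockout region and that at place 389 was 6983 bp from one.

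**Figure D5:**
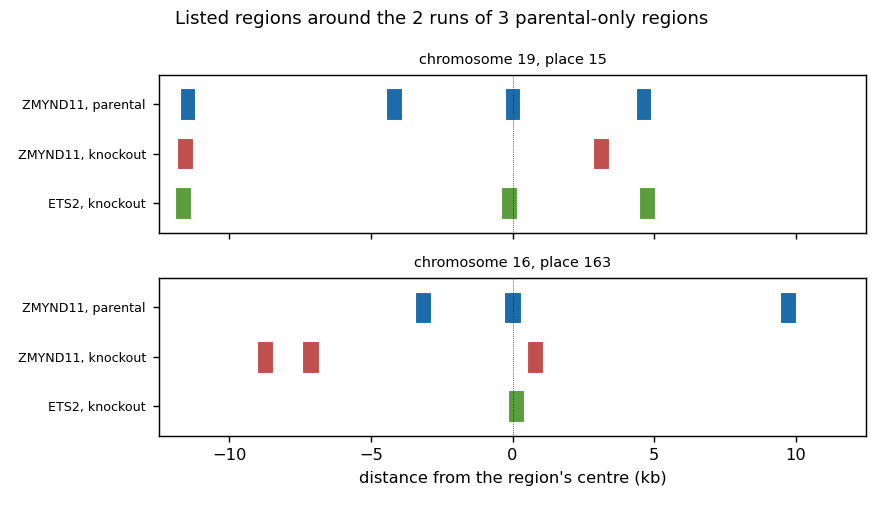
Regions of the 3 lists around the middle member of the 2 runs of 3 parental-only regions, drawn to scale on 1 row per list (x axis, distance from that member's centre in kb). On chromosome 19, 2 of the 3 members coincide with ETS2 regions, and the knockout ZMYND11 region at place 47 lies between these members.

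Of the 10 pairs of members within 10 kb, several also shared a knockout neighbour. On chromosome 6 the members chr6:30689840-30690323 (place 424) and chr6:30691431-30691915 (place 240) were 1108 bp apart, and the knockout region at place 91 was 3257 and 1665 bp from them. On chromosome 12 the members chr12:53342763-53343263 (place 425) and chr12:53345688-53346188 (place 310) lay 3626 and 701 bp from the knockout region at place 729. On chromosome 2 the members chr2:43450559-43451038 (place 355) and chr2:43452029-43452518 (place 114) were 991 bp apart, with gaps of 886 and 1961 bp to different knockout regions and the nearest ETS2 region 2745117 and 2746587 bp away. Closely spaced members therefore occurred both with ETS2 at hand and with none within a megabase.

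By chromosome, members made up from 66.7% of the parental regions (2 of 3, chromosome X) to 100%, against 89.6% over all 536 parental regions. All parental regions were members on 4 chromosomes: 34 of 34 on chromosome 7 (interval 89.8 to 100%), 28 of 28 on chromosome 6, 10 of 10 on chromosome 13 and 5 of 5 on chromosome 18. Among chromosomes with over 10 parental regions the lowest shares were on chromosome 20 (13 of 17, 76.5%, interval 52.7 to 90.4%) and chromosome 14 (21 of 27, 77.8%, interval 59.2 to 89.4%). The intervals of chromosomes 6, 13, 18 and 20 include the 89.6% of the whole list, and those of chromosomes 7 and 14 end close to it. The intervals of chromosomes 7 and 14 do not overlap. This pair was picked from 23 chromosomes after the values were seen.

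Compared with the knockout list, members lay more frequently on chromosome 12, with 39 of 480 (8.12%) against 5.39% (difference 2.73 points, interval 0.579 to 5.55), and less frequently on chromosome 17, with 22 (4.58%) against 8.18% (difference -3.60 points, interval -5.20 to -1.30). All 536 parental regions gave similar shares, 7.84% on chromosome 12 and 5.22% on chromosome 17, so these differences are those of the whole parental list. Chromosomes 6 and 13 also had intervals above 0, and these 4 are out of 24 compared without adjustment. The gap to the nearest knockout region varied with the chromosome: its median was 6787 bp on chromosome 19, where 2 of 33 members were beyond 100 kb, and 149217 bp on chromosome 2, where 17 of 31 were. The densest megabase was 1 to 2 Mb of chromosome 19, with 6 members beside 74 knockout regions and 9 ETS2 regions. Next was 2 to 3 Mb of chromosome 7, with 4 members beside 24 knockout regions and 1 ETS2 region.

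The members did not stand out in width. Their median was 493 bp (quartiles 482 and 498, range 228 to 501 bp), and the 56 overlapping regions had the same median (quartiles 477.75 and 498, range 277 to 501 bp). Under 400 bp wide were 7 members and 1 overlapping region. The 480 members together covered 233 kb.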

How the data were processed

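ChIP-seq region lists of 3 DU145 libraries were used, 1 per group as named in the titles. The authors deposited start and end coordinates in bp as whole numbers, with no header, score or count. Bowtie2 version 2.0.6 and the build hg19 are named in the submitters' processing notes. For the peak caller, its threshold and control, the sources used here give nothing, and the depth of the libraries is unknown. Coordinates are printed as deposited. Gaps are measured between edges, and the nearest region is the one with the smallest gap. No genome or annotation of hg19 was used, so the planned analyses of gene bodies, gene starts, exons, gene lists, base content and motifs were not run, and no sequence is printed. Regions named are the first 25 members, members with ETS2, the 5 nearest and 5 farthest, the 5 smallest overlaps and runs of 3 or more. Pairs on chromosomes 2, 6 and 12 were chosen after their values were seen. The members, gene lists and comparisons were chosen with earlier results of these data known. Gap and overlap counts were tested on simulated data with planted positions. Python 3.11.15, numpy 2.4.6, pandas 2.3.3, scipy 1.17.1 and matplotlib 3.10.9 were used.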

Additional observations from a re-analysis of the deposited data

How the results depend on the processing

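The number of parental-only regions was 480. It was 493 with a reciprocal overlap of 50%, 463 with midpoints within 1000 bp or with gaps of up to 500 bp counted as shared, and 239 in the first 50% of the parental list, which holds 268 regions. Against the first 50% of the knockout list it was 501, and against a knockout list cut to the parental length 527; both were added after seeing the data. The share far from any knockout region was 36.2% beyond 100 kb, 49.0% beyond 50 kb and 26.2% beyond 200 kb, and the share with another parental region nearby was 6.25% at 10 kb and 8.96% at 50 kb. Such shares move with the distance by construction. The ETS2 overlap stayed between 1.04% and 2.51%. In alternatives added after seeing the data, the excess of ETS2 within 5 kb near knockout regions was 19.2 percentage points with 2 kb for both distances, 33.1 with 10 kb, 13.2 with only the ETS2 regions that overlap no knockout ZMYND11 region and 44.0 in the first 50% of the parental list. The excess of neighbours in the first 1% of the knockout list among early members ranged from 11.98 points (first 96 members) to 32.7 (first 25). No direction changed under these alternatives. No replicate could be left out, and no paired analysis was possible because each group has 1 library. Alternatives on genes, base content and motifs were not run. Without scores or depth, no detection limit could be derived.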

Other observations

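On chromosome 4, 2 parental regions 201255 bp apart stood among the first 10 of their list but late in the knockout list. The member chr4:49515295-49515795 was at place 7, and its neighbour 1293 bp away was at place 12470 of the knockout list. The overlapping region chr4:49313582-49314040 was at place 10, and its partner was at place 14439. The nearest ETS2 regions were 1598293 and 1396580 bp away.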
